A study of Homo sapiens with 9 samples.

Results

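The genes described here are 40 genes of the actin cytoskeleton and of cell contraction, the intermediate filament gene *VIM* among them. They were chosen by name and looked up by gene identifier among the 60708 genes counted in each of 9 RNA-sequencing libraries. All 40 matched 1 gene each. By the study's account the libraries came from MDA-MB-231, an established line of basal, triple-negative breast cancer cells. The study's general methods have these cells in serum-containing medium, and its RNA-sequencing methods name no treatment. Of the 9 libraries, 3 were labelled WT and 6 *SNAI1*-KO, 3 each from the clones CS16 and CS19. *SNAI1* codes for a transcription factor that represses epithelial genes during epithelial-mesenchymal transition. To make the clones, the study transfected cells with Cas9, a pool of 3 guide plasmids against *SNAI1* and a repair plasmid, selected them with puromycin and expanded single colonies. Each clone is therefore 1 colony, WT cells are not described as having gone through the selection, and the effect of the targeted gene cannot be told apart from that of cloning and selection. The labels do not say that the replicates of a group were separate cultures, so the p-values measure only the spread between these libraries.

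Actin filaments are built from actin monomers that profilins deliver and cofilin and gelsolin remove. Tropomyosins, calponins and transgelins coat the filaments, α-actinins and filamins crosslink them, and non-muscle myosin II pulls on them once its regulatory light chains are phosphorylated. Bundles that contract in this way are stress fibres, which zyxin, VASP, palladin and PDLIM proteins tie to focal adhesions, whereas ezrin, radixin and moesin link filaments to the plasma membrane. Many of these genes are known targets of serum response factor, which binds a sequence called the CArG box, and invasive mesenchymal cells are known for high levels of several of them.

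The libraries held 19527195 to 28627777 counted read pairs, and 3 counts corresponded to 0.105 to 0.154 CPM, the counts scaled to a library of fixed size. The WT-2 library stood apart, with Pearson correlations of log2(CPM + 1) of 0.952 with WT-1 and 0.948 with WT-3, whereas WT-1 and WT-3 correlated at 0.995, so the log2 fold change of each member that passed is also given without WT-2. As a group, the 6 libraries labelled *SNAI1*-KO did not have fewer counts on the targeted gene. *SNAI1* read 0.791, 2.17 and 1.08 CPM in WT-1, WT-2 and WT-3, 1.28, 1.91 and 1.95 in CS16 and 2.60, 4.08 and 3.08 in CS19, a log2 fold change of 0.89 (adjusted p = 0.0838, edgeR), or 1.40 without WT-2 (adjusted p = 0.0146, edgeR). These counts cover the whole gene, so a transcript with a small deletion is counted too, and they do not test the knockout. For the clones, the study reported lower RT-qPCR values at every *SNAI1* exon, no detectable SNAI1 protein and deletions seen in the aligned reads. In other genes the clone libraries went in part against the stated line. Of 5 genes known to be absent or deleted in MDA-MB-231, *CDKN2A*, *CDKN2B* and *MTAP* had 0 counts in every WT library and 51.6 to 60.9, 10.7 to 13.9 and 99.4 to 107 CPM in the clones, whereas the hormone receptors *ESR1* and *PGR* stayed at or below 0.458 and 0.148 CPM in all 9 libraries. Of 5 genes that the line expresses, *CD44* read 573 to 792 CPM in WT and at most 0.0869 in the clones, and *AXL* 1336 to 2426 and at most 0.393 CPM. The others remained detected in the clones at lower levels, *KRT18* at 48.4 to 76.2 against 510.3 to 617 CPM in WT, *CAV1* at 15.3 to 25.2 against 618 to 1400.0 and *EGFR* at 12.2 to 19.0 against 301 to 667. Differences between WT and the clones thus cannot be told apart from differences in the origin of the cells. Markers of other cell types differed too, in both directions. The summed level of 5 smooth muscle markers was 80.5 to 225 CPM in WT and 53.0 to 68.4 CPM in the clones. Most of it was *SMTN*, at 77.6 to 214 and 47.5 to 61.3 CPM. *LMOD1* went the other way, from at most 0.3599 CPM in WT to 3.31 to 4.17 in the clones. *DES* was at 0 in every WT library and at 0.0869 to 0.430 CPM in the clones, and *MYH11* and *MYOCD* overlapped between the groups. The sum of 5 striated muscle markers was 73.5 to 119 CPM in WT and 19.9 to 25.6 CPM in the clones. Most of it was *TNNT1*, at 63.7 to 101 and 14.5 to 20.3 CPM, with *MYOD1* at 0 in every WT library and *ACTC1* in every clone library. That of 4 luminal epithelial markers was 334 to 644 and 4.38 to 20.5 CPM. Of the luminal markers *KRT19*, *EPCAM* and *GATA3* were lower in every clone library than in any WT library, while *FOXA1* read at most 0.103 CPM in WT, 2.87 to 4.11 in CS16 and 15.3 to 18.2 in CS19. The sum of 5 fibroblast markers was 4.42 to 21.7 CPM in WT and 12.5 to 67.9 in the clones, with *DCN* at 0 in every WT library and *COL3A1* at 0.395 to 0.771 CPM in WT, 55.2 to 59.4 in CS16 and 5.73 to 7.15 in CS19. That of 3 endothelial markers was 5.40 to 6.29 and 0.147 to 0.434 CPM, with *CDH5* at 0 in every WT library, and that of 4 haematopoietic markers 5.14 to 6.75 and 2.35 to 3.30 CPM, with *CD3E* at 0 in every clone library. Their part in the results was not tested.

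The promoters printed here belong to the 3 members with the largest falls among those that held a CArG box in the window used. Sequences came from RefSeq (GRCh38.p14) and ran from 250 bases before to 50 bases after a transcription start. Of the 40 members 35 matched, with 66 windows in all, since a gene can have several starts, and *ACTB*, *MYL9*, *TAGLN*, *PFN2* and *VIL1* had no entry. Capitals mark the CArG box. The window of *CNN2* lies at chr19:1026358-1026657 (plus strand), that of *FLNA* at chrX:154374585-154374884 (minus strand) and that of *ACTN1* at chr14:68977517-68977816 (minus strand), which is 1 of 4 starts of that gene and the one with the box.
CNN2: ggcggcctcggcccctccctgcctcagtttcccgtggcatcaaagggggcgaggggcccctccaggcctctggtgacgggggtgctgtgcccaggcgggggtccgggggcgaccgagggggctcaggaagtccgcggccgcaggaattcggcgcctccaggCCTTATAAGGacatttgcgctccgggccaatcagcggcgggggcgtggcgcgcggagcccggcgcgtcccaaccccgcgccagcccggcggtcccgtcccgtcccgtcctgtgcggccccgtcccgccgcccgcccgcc
FLNA: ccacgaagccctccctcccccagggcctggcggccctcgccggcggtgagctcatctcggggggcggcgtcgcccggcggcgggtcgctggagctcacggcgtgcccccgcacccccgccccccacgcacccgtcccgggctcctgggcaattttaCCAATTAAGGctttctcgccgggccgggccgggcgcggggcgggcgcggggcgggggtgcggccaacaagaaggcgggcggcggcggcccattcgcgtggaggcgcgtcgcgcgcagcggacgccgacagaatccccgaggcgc
ACTN1: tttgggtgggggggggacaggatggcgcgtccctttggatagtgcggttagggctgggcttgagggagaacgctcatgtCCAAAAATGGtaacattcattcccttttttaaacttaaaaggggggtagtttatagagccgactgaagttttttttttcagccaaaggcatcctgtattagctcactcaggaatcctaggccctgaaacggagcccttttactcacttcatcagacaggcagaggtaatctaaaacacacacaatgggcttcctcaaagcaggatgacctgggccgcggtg
The boxes began 89, 94 and 171 bases before the start, respectively. A CArG box was present in 6 of the 66 windows (9.09%), against 1.29% of all 35116 promoters in the table. Those 6 windows belonged to *ACTG1*, *ACTG2*, *TPM4*, *CNN2*, *ACTN1* and *FLNA*. The E-box CACCTG, the sequence that SNAI1 binds, was found on either strand in 9 windows (13.6%) against 20.6% of all promoters, and CATTCC, the sequence bound by TEAD factors, in 12 windows (18.2%) against 14% of all. These matches describe letters in short windows, and binding was not measured.

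Most of the members were lower in the libraries labelled *SNAI1*-KO. Of the 40, 37 had enough counts to be tested, and *ACTG2*, *CNN1* and *VIL1* did not. By the quasi-likelihood test of edgeR, adjusted by Benjamini-Hochberg over all 19631 genes tested, 31 members were lower in *SNAI1*-KO, 2 were higher (*MYH10* and *PFN2*), and 4 did not pass (*ACTA2*, *TPM1*, *CALD1* and *RDX*). Among all genes tested, 32.6% were lower and 31.1% higher. The median log2 fold change was -1.63 over the tested members and -0.0040 over all genes. At the study's cut-offs, an adjusted p below 0.05 and a log2 fold change of at least 2, there were 16 lower members and 1 higher, against backgrounds of 14.3% and 12.6%. Without WT-2 the numbers were 29 lower and 2 higher (33.2% and 34% of all genes), and 10 lower and 1 higher at the cut-offs (12.9% and 13%), where *ACTN1*, *FLNA*, *PDLIM7*, *TAGLN*, *TPM2* and *VASP* no longer reached a log2 fold change of -2. In 29 members every clone library lay below every WT library, as in 28.7% of all genes, and in 2 members every clone library lay above, as in 29.7%. Together the members took 2.28, 3.82 and 2.37% of the counted pairs in WT-1, WT-2 and WT-3, 0.994 to 1.05% in CS16 and 1.04 to 1.16% in CS19. In bulk RNA, fewer cells that express a gene and less of its RNA per cell cannot be told apart.

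**Figure D1:**
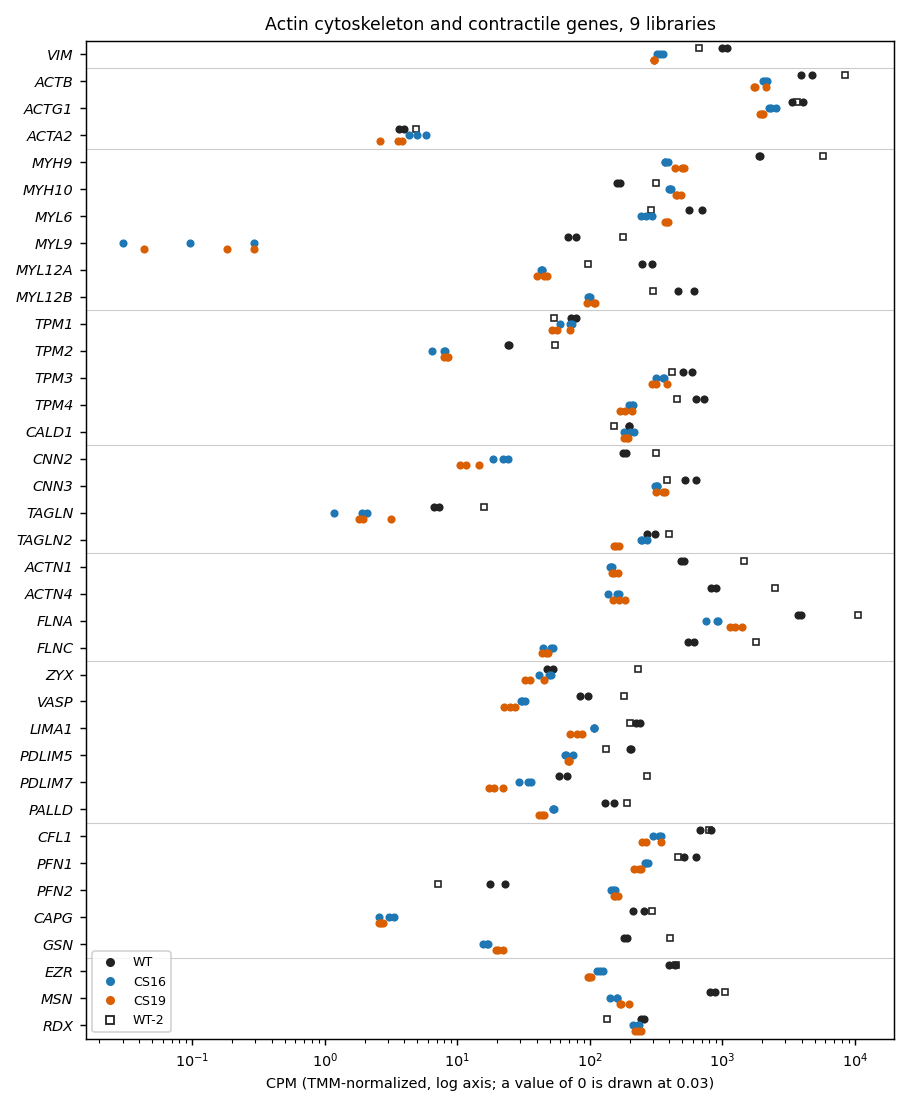
Level of each of the 37 tested members in 9 libraries (CPM on a log axis), grouped by role, with WT in black, CS16 in blue and CS19 in orange. The WT-2 library (open squares) is the highest WT library for 21 members. The clones lie to the left of WT for most genes and to the right for *MYH10* and *PFN2*.

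The actins themselves fell. *ACTB*, the β-cytoplasmic actin, read 3959, 8505 and 4728 CPM in the 3 WT libraries, 2102, 2017 and 2187 in CS16 and 1738, 2127 and 1763 in CS19. Every clone library lay below every WT library, and WT-2 was the highest by a wide margin. The log2 fold change was -1.53 (SE 0.22, adjusted p = 8.47e-05, edgeR) and -1.13 without WT-2. *ACTG1*, the γ-cytoplasmic actin, read 3388, 3689 and 4088 CPM in WT, 2270.3, 2528 and 2334 in CS16 and 1942, 2023 and 2014 in CS19, again without overlap, with a log2 fold change of -0.77 (SE 0.15, adjusted p = 7.34e-04, edgeR) and of -0.78 without WT-2. The smooth muscle actin *ACTA2*, a marker of myofibroblasts, was low throughout at 2.62 to 5.86 CPM, its groups overlapped, and its log2 fold change was 0.01 (SE 0.26). Of its exon bases, 30.8% overlap other genes, which limits what these unstranded counts say about it. The enteric smooth muscle actin *ACTG2* had at most 2 counts in any library, which is under the floor of 3. Per kilobase of exon, the members with the highest levels in WT-1 and WT-3 were *ACTB* (899 and 1073 CPM per kb) and *ACTG1* (836 and 1009), and in the clones *ACTG1* (479 to 624) stood above *ACTB* (395 to 497) in the same library each time. In CPM, without division by exon length, *ACTB* was above *ACTG1* in CS19-2 (2127 against 2023) and below it in the other clone libraries. *VIM*, the intermediate filament protein of mesenchymal cells, read 1004, 666 and 1096 CPM in WT, 339, 356 and 321 in CS16 and 305, 307 and 304 in CS19. Its groups did not overlap, with a log2 fold change of -1.52 (SE 0.16, adjusted p = 6.52e-06, edgeR) and of -1.71 without WT-2. The antisense gene *VIM-AS1* and another gene overlap 24.3% of its exon bases.

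Myosin II showed the largest fall among the members and one of the 2 rises. *MYL9*, a regulatory light chain of smooth muscle and non-muscle myosin at chr20:36541497-36551447 (plus strand), read 68.3, 179 and 79.1 CPM in WT. In the clones it had 22 counts over 6 libraries together, at most 9 in any one, and read 0.295, 0.0956 and 0 CPM in CS16 and 0.182, 0.0434 and 0.295 in CS19. The ratio of WT to the clones was 702.5, with a 95% interval of 464 to 1121 that covers counting error only. The fitted log2 fold change was -9.41 (SE 0.51, adjusted p = 2.78e-08, edgeR), and -8.85 without WT-2. The other regulatory light chains, *MYL12A* and *MYL12B*, are neighbours on chromosome 18 and fell less. *MYL12A* read 249, 97.0 and 293 CPM in WT, 43.9, 43.3 and 43.2 in CS16 and 40.1, 47.8 and 45.0 in CS19. *MYL12B* read 465.5, 299.5 and 614 CPM in WT, 97.8, 101 and 99.7 in CS16 and 95.8, 109.7 and 107 in CS19. For both, WT-2 was the lowest WT library, and it still lay above the clones. Their log2 fold changes were -2.28 (SE 0.26, adjusted p = 1.13e-05, edgeR) and -2.17 (SE 0.18, adjusted p = 1.07e-06, edgeR), and -2.63 and -2.41 without WT-2.

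The heavy chains went opposite ways. *MYH9*, the heavy chain of myosin IIA, read 1939, 5766 and 1898 CPM in WT, 373, 371 and 392 in CS16 and 498, 519 and 441 in CS19. The WT-2 value was 3.01 times the mean of the other WT libraries, and the other WT libraries still lay far above all clone libraries. Its log2 fold change was -2.89 (SE 0.31, adjusted p = 8.70e-06, edgeR), and -2.15 without WT-2. *MYH10*, the heavy chain of myosin IIB, read 171, 317 and 161 CPM in WT, 414, 402 and 400.2 in CS16 and 454, 492 and 448 in CS19. All clone libraries lay above all WT libraries, with a log2 fold change of 1.01 (SE 0.22, adjusted p = 0.00162, edgeR), or 1.39 without WT-2. Per kilobase of exon, *MYH9* made up 92.0 to 94.8% of the sum of both in WT and 47.7 to 52.6% in the clones. Their summed level was 231 to 682 CPM per kb in WT and 86.3 to 112.8 in the clones. The essential light chain *MYL6* read 564, 289 and 703 CPM in WT, 245, 294 and 266 in CS16 and 386, 369.8 and 392 in CS19. WT-2 lay among the clone libraries. Its log2 fold change of -0.67 passed narrowly (adjusted p = 0.0371, edgeR), without WT-2 it was -0.97 (adjusted p = 6.07e-04, edgeR), and it did not pass without WT-1, WT-3 or any 1 CS16 library, at -0.64 to -0.37. Overlapping genes cover 18.3% of its exon bases.

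Among the filament-coating proteins, 3 of 4 tropomyosins fell. *TPM2*, a tropomyosin of stress fibres and muscle, read 24.5, 54.6 and 24.2 CPM in WT, 8.05, 6.45 and 8.01 in CS16 and 8.42, 8.56 and 7.93 in CS19. *TPM4*, a short non-muscle tropomyosin gene, read 640.0, 459.8 and 730.1 CPM in WT, 212, 197 and 208 in CS16 and 168, 209.7 and 186 in CS19. In both, all clone libraries lay below all WT libraries, although WT-2 was the highest WT library for *TPM2* and the lowest for *TPM4*. Their log2 fold changes were -2.12 (SE 0.24, adjusted p = 1.37e-05, edgeR) and -1.63 (SE 0.16, adjusted p = 2.94e-06, edgeR), and -1.63 and -1.80 without WT-2. *TPM3* fell by less, from 416 to 594 CPM in WT to 293 to 384 in the clones, with a log2 fold change of -0.57 (adjusted p = 0.00565, edgeR), or -0.70 without WT-2. Genes named as its pseudogenes reached 4.56% of its counts, the highest such share among the members. *TPM1* (52.1 to 78.3 CPM over all libraries) and the caldesmon gene *CALD1* (151 to 215 CPM), whose product restrains myosin on filaments, overlapped between groups, with log2 fold changes of -0.09 (SE 0.17) and 0.10 (SE 0.13). Within the tropomyosins, counted per kilobase of exon, *TPM4* was the largest share in WT (43.4 to 52.9%) and *TPM3* in the clones (48.4 to 50.5%), while *TPM1* went from 4.56 to 5.39% in WT to 9.61 to 11.0% in the clones. The sum of the 4 was 85.6 to 111.5 CPM per kb in WT and 39.4 to 50.1 in the clones.

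The calponin *CNN2*, whose CArG box is shown above, had one of the larger falls. It read 179, 315 and 188 CPM in WT, 22.3, 18.5 and 24.1 in CS16 and 10.6, 14.5 and 11.7 in CS19. No clone library came near the WT range, and its log2 fold change was -3.74 (SE 0.28, adjusted p = 3.86e-07, edgeR), or -3.44 without WT-2. *TAGLN*, the transgelin of smooth muscle and a widely used marker of contractile cells, was low in every library. It read 6.72, 15.9 and 7.25 CPM in WT, 1.18, 1.91 and 2.07 in CS16 and 3.19, 1.82 and 1.93 in CS19. The groups did not overlap, and the log2 fold change was -2.30 (SE 0.33, adjusted p = 7.94e-05, edgeR), or -1.79 without WT-2. Other genes, among them *PCSK7* on the opposite strand, cover 47.8% of its exon bases, which limits what these unstranded counts say about it. *CNN3*, the acidic calponin of non-muscle cells, fell from 384 to 637 CPM in WT to 312 to 369 in the clones (log2 fold change -0.63, adjusted p = 0.00452, edgeR, and -0.81 without WT-2), and *TAGLN2* from 272 to 399 CPM to 152 to 270 (log2 fold change -0.67, adjusted p = 0.019, edgeR). The call for *TAGLN2* was lost without WT-2 (-0.51, adjusted p = 0.0621, edgeR). The smooth muscle calponin *CNN1* had at most 4 counts in any library. As a share of the calponins per kilobase, *CNN3* was 61.4 to 81.6% in WT and 94.4 to 97.5% in the clones.

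All 4 crosslinkers fell, and all had their highest value in WT-2. *ACTN1*, the α-actinin of focal adhesions and stress fibres, read 489, 1449 and 515 CPM in WT, 146, 143 and 148 in CS16 and 152, 164 and 148 in CS19. *ACTN4*, its paralog, read 829.7, 2507 and 895 CPM in WT, 161, 138 and 166 in CS16 and 167, 184 and 149.6 in CS19. In neither did the clones reach the lower WT libraries, which differed from each other far less than from WT-2. The log2 fold changes were -2.44 (SE 0.29, adjusted p = 1.60e-05, edgeR) and -3.13 (SE 0.30, adjusted p = 2.84e-06, edgeR), and -1.75 and -2.43 without WT-2. *FLNA*, the main filamin, which also anchors integrins, read 3703, 10533 and 3946 CPM in WT, 914, 759 and 925 in CS16 and 1260.0, 1415 and 1155 in CS19. In WT-2 it was the most abundant gene of the library, with 0.933% of the counted pairs. *FLNC*, a filamin best known from muscle, read 550.0, 1794 and 612 CPM in WT, 52.6, 44.3 and 51.3 in CS16 and 46.7, 48.4 and 44.0 in CS19. Both filamins were without overlap, at log2 fold changes of -2.50 (SE 0.32, adjusted p = 3.21e-05, edgeR) and -4.36 (SE 0.32, adjusted p = 2.96e-07, edgeR), and at -1.84 and -3.61 without WT-2. *FLNC* was 14.8 to 16.7% of these filamins per kilobase of exon in WT and 3.86 to 6.41% in the clones.

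The 6 adaptors of stress fibres and focal adhesions passed in the lower direction with all WT libraries, and 5 of them without WT-2. *VASP*, which lengthens filaments at focal adhesions, read 84.7, 181 and 98.0 CPM in WT, 31.1, 30.5 and 32.7 in CS16 and 22.6, 27.4 and 24.9 in CS19. *LIMA1*, which crosslinks filaments and slows their disassembly, read 225, 201 and 239 CPM in WT, 108, 107 and 108 in CS16 and 71.3, 87.3 and 80.7 in CS19. Neither overlapped between WT and the clones, and the log2 fold changes were -2.10 (SE 0.22, adjusted p = 6.45e-06, edgeR) and -1.24 (SE 0.16, adjusted p = 3.65e-05, edgeR), and -1.70 and -1.31 without WT-2. The PDZ and LIM domain gene *PDLIM5* read 205, 132 and 201 CPM in WT, 66.4, 74.6 and 65.6 in CS16 and 69.5, 68.2 and 69.5 in CS19. *PALLD*, which codes for palladin, read 152, 192 and 129.7 CPM in WT, 53.3, 53.5 and 53.0 in CS16 and 41.3, 43.9 and 45.6 in CS19. The WT libraries of both lay above all clone libraries, with log2 fold changes of -1.38 (SE 0.15, adjusted p = 7.05e-06, edgeR) and -1.70 (SE 0.15, adjusted p = 1.58e-06, edgeR), and -1.56 and -1.54 without WT-2.

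The remaining pair of adaptors depended most on WT-2. *PDLIM7*, a relative of *PDLIM5*, read 59.1, 269 and 67.7 CPM in WT, 34.4, 29.1 and 35.8 in CS16 and 19.1, 22.2 and 17.3 in CS19. It was lower in every clone library, but its log2 fold change went from -2.32 (SE 0.42, adjusted p = 5.16e-04, edgeR) to -1.27 without WT-2. *ZYX*, which codes for zyxin, a protein that gathers at strained stress fibres, read 47.9, 232 and 52.4 CPM in WT, 49.7, 41.7 and 51.4 in CS16 and 35.4, 45.5 and 32.3 in CS19. WT-1 and WT-3 lay within or just above the range of CS16, and the log2 fold change of -1.38 (SE 0.41, adjusted p = 0.0123, edgeR) became -0.24 (adjusted p = 0.227, edgeR) when WT-2 was left out.

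**Figure D2:**
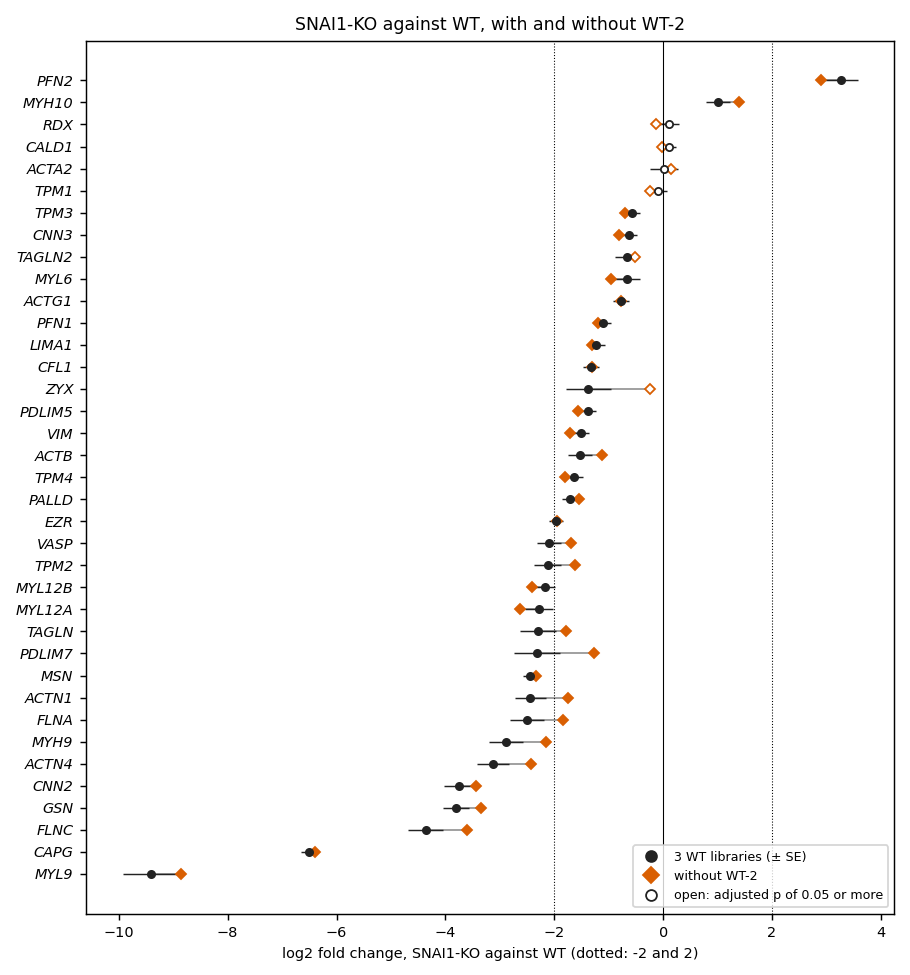
log2 fold change of *SNAI1*-KO against WT for the 37 tested members, with all 3 WT libraries (black, ± SE) and without WT-2 (orange diamonds). Open symbols have an adjusted p of 0.05 or more. Most members stay on the left of 0 in both, *ZYX* moves from -1.38 to -0.24, and 10 rather than 16 members lie beyond -2 without WT-2.

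Of the proteins that bind monomers or sever and cap filaments, *CAPG* fell most. This gene of a filament-capping protein (chr2:85394753-85418432, minus strand) read 214, 297 and 256 CPM in WT, 3.04, 3.35 and 2.55 in CS16 and 2.78, 2.65 and 2.56 in CS19. All clone libraries stood far below all WT libraries, with a log2 fold change of -6.50 (SE 0.16, adjusted p = 1.49e-10, edgeR) and -6.39 without WT-2. *GSN*, which codes for gelsolin, a severing and capping protein related to CAPG, read 183, 405 and 192 CPM in WT, 17.0, 15.7 and 16.7 in CS16 and 19.6, 22.2 and 20.2 in CS19. Its log2 fold change was -3.81 (SE 0.24, adjusted p = 8.65e-08, edgeR), or -3.34 without WT-2. The third gene of that family in the list, the epithelial *VIL1*, stayed at 0.174 to 0.572 CPM and was not tested. *CFL1*, which codes for cofilin, read 681, 789 and 827 CPM in WT, 333, 299 and 343 in CS16 and 249, 347 and 265 in CS19. The groups did not overlap (log2 fold change -1.32, SE 0.15, adjusted p = 1.13e-05, edgeR, and -1.31 without WT-2), and overlapping genes cover 19.0% of its exon bases.

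The profilins, which load actin monomers onto growing filaments, went opposite ways. *PFN1* read 512, 462 and 634 CPM in WT, 268, 277 and 261 in CS16 and 217, 243 and 234 in CS19. *PFN2* (chr3:149964904-150050788, minus strand), known as the profilin of neurons, read 17.8, 7.21 and 23.0 CPM in WT, 149.8, 155 and 145 in CS16 and 152, 155 and 163 in CS19. Neither overlapped between WT and the clones, and WT-2 was the lowest library for *PFN2*. *PFN1* had a log2 fold change of -1.10 (SE 0.14, adjusted p = 3.39e-05, edgeR), or -1.20 without WT-2, and *PFN2* rose by 3.26 (SE 0.31, adjusted p = 3.17e-06, edgeR), or 2.91 without WT-2. *PFN2* was the only member past the study's cut-offs in the higher direction. Per kilobase of exon it made up 0.669 to 1.54% of both profilins in WT and 19.4 to 23.2% in the clones, and the sum of both was 291 to 402 CPM per kb in WT and 176 to 215 in the clones. From raw counts the mean share of *PFN2* was 2.799% in WT, 35.85% in CS16 and 40.39% in CS19.

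The membrane linkers split as well. *EZR*, which codes for ezrin, the linker of epithelial microvilli, read 397, 448 and 443 CPM in WT, 114.5, 125 and 119 in CS16 and 97.0, 103 and 98.1 in CS19. *MSN*, which codes for moesin, read 804, 1046 and 880.1 CPM in WT, 161, 142 and 161 in CS16 and 168, 199 and 173 in CS19. Both lay lower in all clone libraries, with log2 fold changes of -1.97 (SE 0.13, adjusted p = 1.15e-07, edgeR) and -2.44 (SE 0.14, adjusted p = 4.42e-08, edgeR) that hardly depended on WT-2 (-1.95 and -2.34 without it). *RDX*, which codes for radixin, did not pass. It ranged from 136 to 259 CPM in WT and from 211 to 243 CPM in the clones, at a log2 fold change of 0.11 (SE 0.19) and of -0.14 without WT-2. The share of *RDX* among the linkers per kilobase was 4.88 to 10.1% in WT and 28.3 to 32.7% in the clones, while that of *MSN* was 47.1 to 53.5% and 26.5 to 36.2%. From raw counts the mean share of *RDX* was 13.85% in WT, 45.26% in CS16 and 45.36% in CS19. That of *MSN* was then 58.48, 30.9 and 35.18%.

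**Figure D3:**
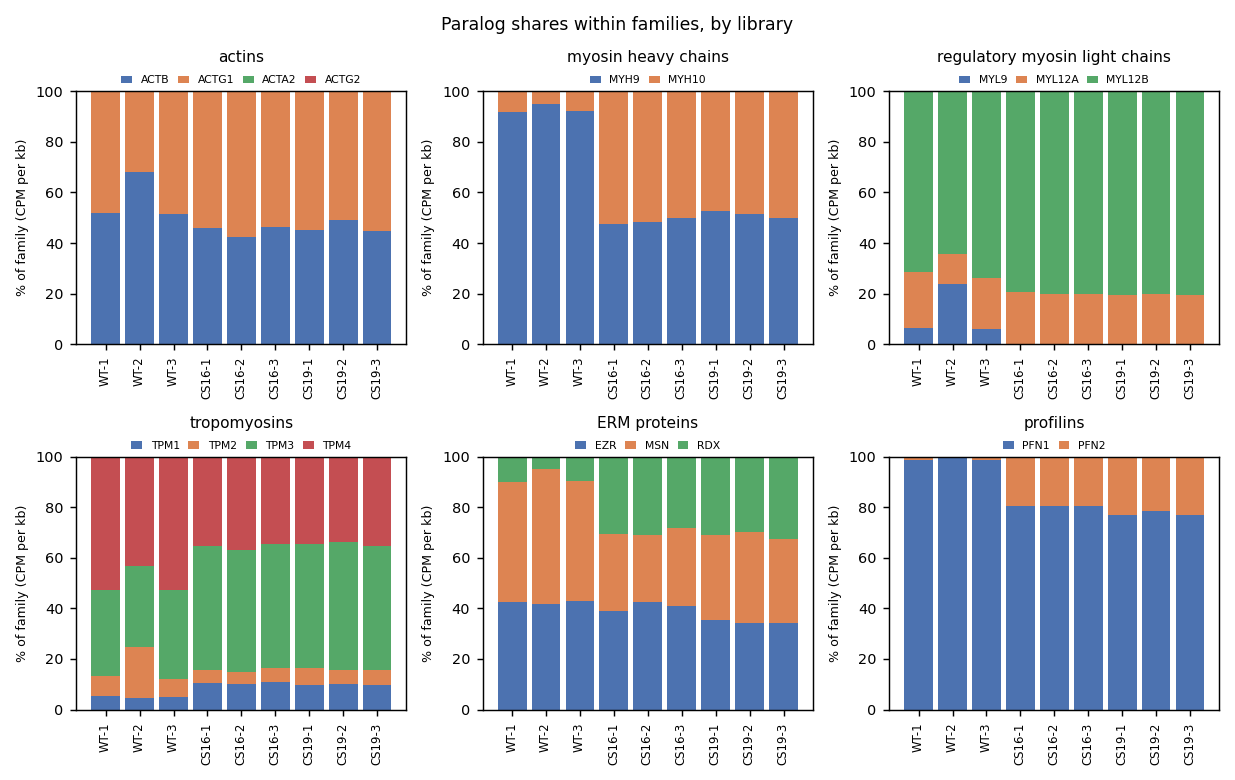
Share of each paralog in the summed level of its family (percent of CPM per kilobase of exon) in the 9 libraries. *MYH10*, *PFN2* and *RDX* take larger shares in CS16 and CS19 than in any WT library, and the *MYL9* share is at most 0.148% in the clones.

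Each clone was also compared with WT. The comparisons of CS16 and of CS19 with WT used the same 3 WT libraries, so they are not independent. In CS16, 28 members passed in the lower direction and 2 in the higher (edgeR), where 28.6% and 27% of all genes tested did, and in CS19 27 and 2, where 26.6% and 26.3% did. Of the lower members 26 passed in both clones, *CNN3* and *MYL6* passed in CS16 alone and *TAGLN2* in CS19 alone, while both clones had *MYH10* and *PFN2* as the higher members. Without WT-2 the counts were 29 lower and 2 higher in CS16 (36.3% and 36.4% of all genes) and 32 lower and 2 higher in CS19 (34.8% and 36.4%), with *TPM3* added in both and *TPM1*, *MYL6*, *CNN3* and *ZYX* in CS19. The log2 fold changes in CS16 and CS19 were -9.70 and -9.14 for *MYL9*, -6.39 and -6.54 for *CAPG*, -4.29 and -4.37 for *FLNC*, and 3.26 and 3.33 for *PFN2*. The rise of *MYH10* in CS16 (0.94, adjusted p = 0.0263, edgeR) did not pass when any 1 library other than WT-2 was left out (0.78 to 0.98), which leaves 1 higher member. In CS19 its log2 fold change was 1.14 (adjusted p = 0.0126, edgeR). The CS16 calls of *ACTG1*, *CNN3*, *MYL6* and *PDLIM7* were likewise lost without any 1 of 4, 5, 5 and 3 libraries, at log2 fold changes of -0.62 to -0.53, -0.67 to -0.48, -0.95 to -0.63 and -1.98 to -1.84.

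The clones also differed from each other, by less. In CS16 against CS19, a comparison without any WT library, 36 members were tested (edgeR), 10 were higher in CS16 and 6 lower, where 14.7% and 12.7% of all 17538 genes were, and 0 members differed by a log2 value of 2 or more, against 0.633% of all genes higher and 0.496% lower. The largest differences were *CNN2*, higher in CS16 by 0.82 on the log2 scale (SE 0.13, adjusted p = 3.01e-04, edgeR), and *PDLIM7*, higher by 0.76 (SE 0.11, adjusted p = 1.67e-04, edgeR). *TAGLN2* at 0.67 (SE 0.06, adjusted p = 5.71e-06, edgeR) was followed by the smooth muscle actin *ACTA2* at 0.60 (SE 0.19, adjusted p = 0.0316, edgeR). In the other direction, *FLNA* was lower in CS16 at -0.56 (SE 0.10, adjusted p = 6.88e-04, edgeR), as were *MYL6* at -0.52 (adjusted p = 1.66e-04, edgeR) and both myosin heavy chains, *MYH9* at -0.36 and *MYH10* at -0.20. *PFN2*, *CAPG* and *FLNC*, which differed strongly from WT, did not pass between the clones, at -0.07 (SE 0.06), 0.15 (SE 0.19) and 0.09 (SE 0.08). In one fit of all 3 groups, where the spread of the WT libraries enters, none of the 37 members tested passed between the clones by edgeR. Of all 19631 genes, 318 passed as higher and 336 as lower in that fit. There, 4 members were higher and 0 lower at an unadjusted p below 0.05 (edgeR). DESeq2 on the clones alone passed 11 higher and 5 lower members, where 2483 and 1697 of 18957 genes passed. Leaving out 1 library at a time gave 6 (without CS19-1) to 14 (without CS19-2) higher and 3 (without CS19-2) to 4 lower members. Of all genes, 1873 of 18017 were higher without CS19-1, and 2761 of 18125 were higher and 2061 lower without CS19-2. The calls of *ACTA2*, *ACTG1*, *PFN1*, *MYH10* and *MSN* were lost in at least 4 of the 6 fits without 1 library.

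**Figure D4:**
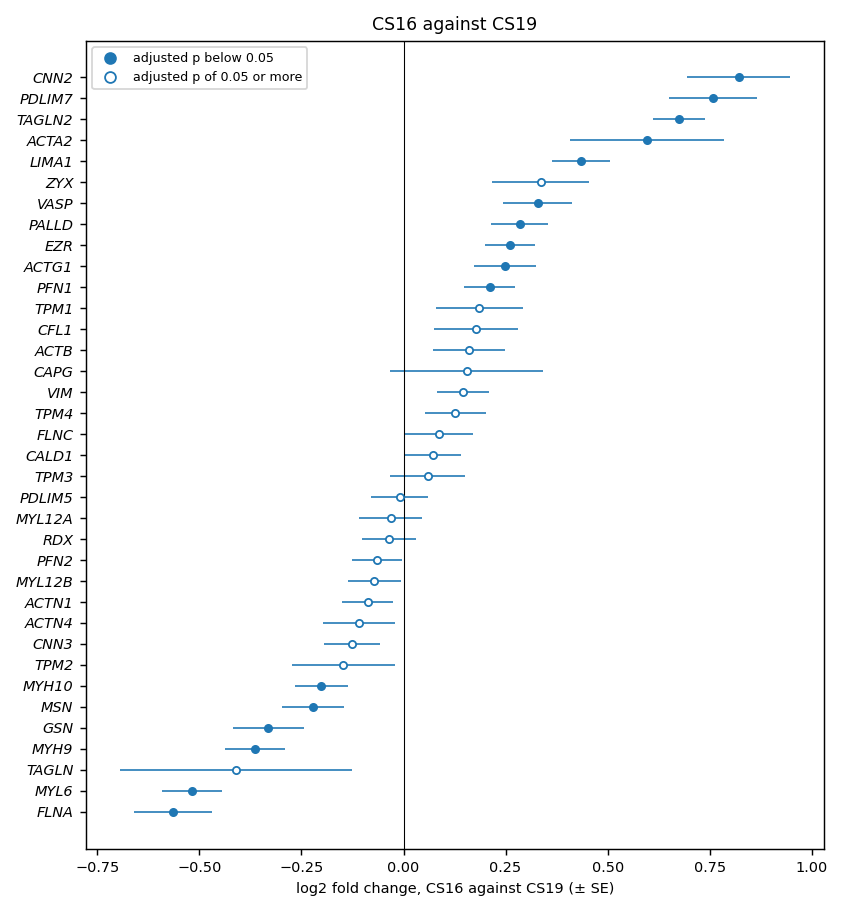
log2 fold change of CS16 against CS19 for the 36 tested members (± SE), where positive values are higher in CS16. Filled points have an adjusted p below 0.05, and all values lie between those of *FLNA* (-0.56) and *CNN2* (0.82).

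The distance of WT-2 from the other WT libraries followed the base composition of the members. WT-2 was the highest WT library for 21 of the 37 tested members and the lowest for 14, and over 1.5 times both others for 15. The same counts were not made over all genes, so they do not tell the members from other genes. The log2 difference of WT-2 from the mean of WT-1 and WT-3 correlated with the GC content of the exons at a Spearman rho of 0.746 across the 37 members, which share these libraries and are not independent. Over 19622 genes rho was 0.665, and with exon length it was 0.0797 across members and 0.0146 across genes. The largest excess was that of *ZYX* (63.5% GC, 4.62 times the mean of the other WT libraries) and *PDLIM7* (64.2% GC, 4.24 times), and *MYL12A* (44.5% GC) and *PFN2* (47.1% GC) were at 0.358 and 0.354 times. The members tested had a median exon GC content of 53.0%, against 47.6% for all genes tested. Whether base composition accounts for the difference of WT-2 was not tested.

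**Figure D5:**
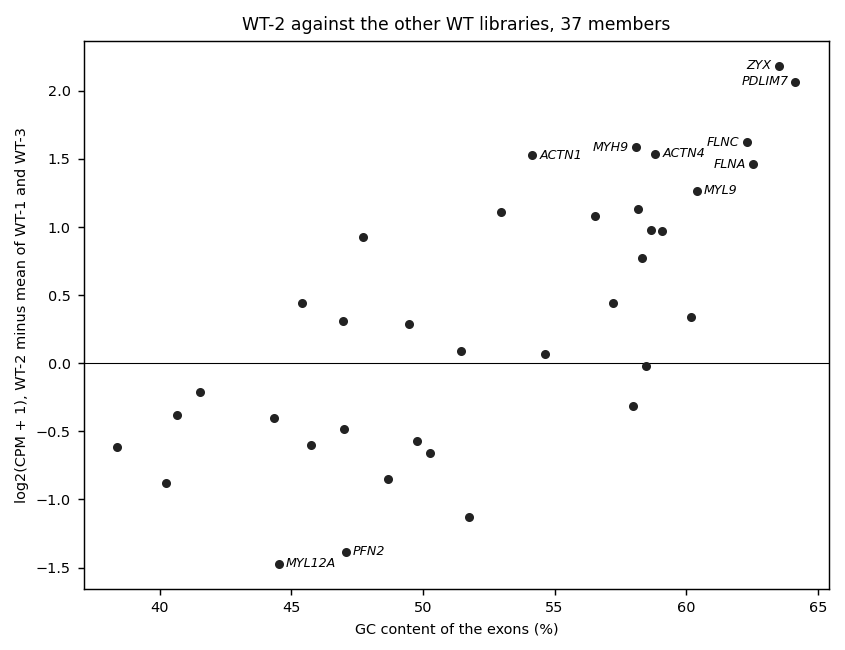
GC content of the exons (percent) against the difference in log2(CPM + 1) between WT-2 and the mean of WT-1 and WT-3, 1 point for each of the 37 tested members. Points rise to the right, from *MYL12A* and *PFN2* near the bottom to *PDLIM7* and *ZYX* at the top right.

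Other genes that regulate or bind actin were counted from a list of 84, all of which were tested. Of these 51 were lower in *SNAI1*-KO and 17 higher (edgeR), against the backgrounds of 32.6% and 31.1%, with a median log2 fold change of -0.72. Without WT-2 these were 57 lower and 19 higher, against 33.2% and 34%. Among those that fell was *TMSB4X*, which codes for the main monomer-sequestering thymosin. *TMSB4X* read 2605, 1179 and 3206 CPM in WT, 14.0, 24.7 and 16.8 in CS16 and 36.6, 28.4 and 39.0 in CS19, a log2 fold change of -6.45 (SE 0.39, adjusted p = 6.65e-08, edgeR). The filament-binding genes *ABLIM3* and *SYNPO* had log2 fold changes of -5.22 and -4.81 (adjusted p = 2.30e-08 and 1.61e-06, edgeR). *MYLK*, which codes for the kinase that phosphorylates regulatory light chains such as MYL9, read 180.0, 282 and 167 CPM in WT, 14.7, 12.5 and 14.1 in CS16 and 11.0, 9.55 and 10.2 in CS19. Its log2 fold change was -4.13 (SE 0.20, adjusted p = 1.13e-08, edgeR). Among the genes that rose, *TMSB15A*, another thymosin, had 0 counts in WT and 7.21 to 13.4 CPM in the clones, at least 64.1-fold more against 3 counts per library. *MYH14*, the heavy chain of myosin IIC, had 9 counts in WT, all in WT-2, and read 29.4, 21.4 and 28.2 CPM in CS16 and 8.20, 9.08 and 8.36 in CS19. *TMOD1* and *LMOD1*, which bind pointed filament ends and of which *LMOD1* is also a smooth muscle marker of the list above, rose to 3.80 to 7.55 and 3.31 to 4.17 CPM from at most 0.229 and 0.3599 CPM in WT.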

How the data were processed

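RNA of 9 libraries was depleted of ribosomal RNA and sequenced from both ends in stranded libraries. Per the labels and methods, the authors trimmed reads with Trimmomatic 0.36, aligned them to GRCh38.p13 with STAR 2.7.2b and counted pairs on gencode release 38 with featureCounts (Subread 2.0.0), keeping pairs with both mates aligned, no chimera and mapping quality 30 or above. The counting was unstranded, so reads of overlapping genes cannot be separated. The deposited values are raw counts per gene, without molecular identifiers, so intervals and floors cover counting error only. Depth was 19527195 to 28627777 pairs.

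Counts were filtered with filterByExpr, scaled by TMM and tested with edgeR 4.0.16 (quasi-likelihood, R 4.3.3), with p-values adjusted by Benjamini-Hochberg over all genes tested. A member passed at an adjusted p below 0.05. The comparisons were *SNAI1*-KO against WT, each clone against WT and CS16 against CS19. CPM used TMM factors over the 9 libraries, and standard errors were the log2 fold change divided by the root of F. Exon lengths came from the count files, and their exon coordinates (gencode release 38) gave overlaps and GC content. Alternatives were DESeq2 1.42.0, other normalizations and filters, library sizes without the 100 most abundant genes, a replicate block, a shared fit and leaving out each library. On simulated data, the test of *SNAI1*-KO against WT recovered 87 of 88 genes changed 2-fold and 112 of 112 changed 4-fold, with 16 false calls. The simulation gave all genes the same dispersion, changed only the more abundant ones and had no outlying library such as WT-2. These numbers therefore do not describe the test on the real libraries. All 40 members are named. Values of every library are given for members that passed with an absolute log2 value of 1 or more in *SNAI1*-KO against WT and for *ACTB*, *ACTG1* and *VIM*, and for the other actin genes the 5 largest changes in each direction, of which 1 each way is not reported here. *MYL6* was given in full after its values were seen. Members and lists were chosen with earlier results of these data known. Reads and single exons were not analysed here.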

Additional observations from a re-analysis of the deposited data

Results flagged for a closer look

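In the 6 clone libraries, *TPM2* in CS16-2 (6.45 CPM) lay apart from the other 5 (7.93 to 8.56 CPM), by a gap that is large for the range of the group. This was looked for in 37 members, and chance gives such a value in about 1 group in 20.

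The effect of the clones against WT differed between CS16 and CS19 for 16 members, tested as CS16 against CS19 (edgeR, adjusted p below 0.05). Higher in CS16, on the log2 scale, were *CNN2* (0.82), *PDLIM7* (0.76), *TAGLN2* (0.67), *ACTA2* (0.60), *LIMA1* (0.43), *VASP* (0.33), *PALLD* (0.28), *EZR* (0.26), *ACTG1* (0.25) and *PFN1* (0.21). Lower in CS16 were *FLNA* (-0.56), *MYL6* (-0.52), *MYH9* (-0.36), *GSN* (-0.33), *MSN* (-0.22) and *MYH10* (-0.20). Of the 6 adaptors of stress fibres and focal adhesions, 4 were higher in CS16 and 0 lower, against 14.7% and 12.7% of all genes. In the shared fit of 3 groups 0 of the 37 members tested passed (edgeR), with 4 higher and 0 lower at an unadjusted p below 0.05. Of all 19631 genes, 318 passed as higher and 336 as lower in that fit.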

How the results depend on the processing

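The direction of every member that passed in *SNAI1*-KO against WT, in CS16 against WT and in CS19 against WT was kept under all alternatives. The number of lower members at the study's cut-offs went from 16 to 10 without WT-2 (range without 1 library 10 to 17), and the number of higher members in CS16 from 2 to 1 without any 1 other library (range 1 to 2). Between the clones, 10 higher and 6 lower members became 4 and 3 with the replicate block, 0 and 0 in the shared fit of 3 groups, and 6 to 14 and 3 to 4 without 1 library. Of all genes, 1703 higher and 1476 lower of 17538 passed with the block, and 318 and 336 of 19631 in the shared fit. The numbers of the labels did not pair the libraries: same-numbered libraries of 2 groups deviated together with correlations of -0.386 to 0.331, over 0.1 in 2 of 9 pairs, and the own number correlated best in 4 of 18 combinations. With the replicate block, 30 lower and 2 higher members passed in *SNAI1*-KO against WT, where 5919 and 5920 of all 19631 genes did. In CS16 against WT 24 members passed as lower with the block, where 4419 of all 18611 genes did. DESeq2 gave 30 lower and 2 higher members in *SNAI1*-KO against WT, where 7838 and 7081 of 31169 genes passed, and no adjusted p for *ZYX*. Shares within families rest on the exon lengths used. With raw counts instead, many of them moved by more than the spread of their libraries. Those of the myosin heavy chains did not, with *MYH9* at 92.97% in WT, 48.29% in CS16 and 51.09% in CS19.

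Values that turned sign belonged to members that did not pass, and the cause was not tested. In *SNAI1*-KO against WT, *ACTA2* was -0.014 in the shared fit and -0.11 to 0.14 without 1 library, and *TPM1* 0.014 without a filter and -0.24 to 0.041 without 1 library. Without 1 library, *CALD1* ranged from -0.022 (without WT-2) to 0.18 and *RDX* from -0.14 (without WT-2) to 0.30. In CS16 against WT, *TPM1* was -0.0013 in the shared fit and -0.15 to 0.15 without 1 library, and *RDX* -0.15 to 0.30. In CS19 against WT, *CALD1* was -0.036 to 0.17 and *RDX* -0.097 to 0.33. Between the clones, *PDLIM5* was 0.011 with DESeq2, 0.0020 with RLE and -0.064 to 0.027 without 1 library, *MYL12A* -0.088 to 0.029, *TPM3* -0.013 to 0.18 and *RDX* -0.059 to 0.016. At this depth *ACTG2* and *CNN1* could not be compared.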
